A study of Homo sapiens with 79 samples.

Results

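The 9 genes described here encode the working parts of the rod phototransduction cascade. They are the transducin subunits GNAT1 and GNGT1, the phosphodiesterase subunits PDE6A, PDE6B and PDE6G, the channel subunits CNGA1 and CNGB1, the exchanger SLC24A1 and the arrestin SAG. They were taken by role, not by any measured value, and are 9 of the 24414 genes in the count table. All 9 were rows of the table. The visual pigment of rods and the cone transducin subunit GNAT2 were not analysed here.

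The counts come from retinal organoids, layered aggregates that resemble the developing retina, grown from the human embryonic stem cell line H9 with a CRX-GFP reporter. All organoids shared this line and a medium with foetal calf serum, T3, taurine and retinoic acid from day 18, and cells were taken from them at day 60, day 90 or day 200. Single cells were captured on Fluidigm C1 chips and sequenced as full-length cDNA by SMART-Seq v4, and the deposited values are whole counts of reads per gene and cell, without molecular identifiers. The 79 samples are chip columns: the day 60 chip has 19 (578 cells), the day 90 chip 20 (661 cells), and the day 200 chips called a and b have 20 each (356 and 381 cells). No label ties the columns to separate cultures, and days 60 and 90 have 1 chip each, so no test was made between time points, and the gap between the 2 day 200 chips is the only view of replicate error.

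In rods, light activates the visual pigment, which loads transducin with GTP. Transducin then removes the inhibitory gamma subunits from a phosphodiesterase that breaks down cyclic GMP. The fall in cyclic GMP closes the channel of the outer segment, the sodium, calcium and potassium exchanger goes on removing calcium, and arrestin ends the signal of the pigment. Cones use a parallel set of genes, and the transcription factors CRX, OTX2, NRL and NR2E3 are known to control the rod set.

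Levels are in CPM, the reads of a gene summed over the cells of a chip, divided by all gene reads of those cells and scaled to 1000000. Intervals in parentheses are 95% exact intervals, Poisson for reads and Clopper-Pearson for shares of cells, and cover counting error only. The columns of a chip held between 3414268 and 7999822 reads. The median cell had 164352 reads at day 60, 160343 at day 90, 251929 in chip a and 212201 in chip b, so shares of cells with a read are given after each cell was thinned to 50000 reads, which left out 6 shallow cells of day 90. The 40 cell barcodes of a column recur on every chip by design, each in 35 to 59 of the 79 columns.

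A value of 0 in this table is not always a measured absence. On every chip, each gene above 0 had at least 6 reads in all, and genes with reads in only 1 to 4 cells numbered 14 at day 60, 0 at day 90, 6 in chip a and 0 in chip b, whereas 912, 1123, 754 and 808 genes had reads in exactly 5 cells. The table so looks filtered chip by chip, and 13.9%, 9.31%, 34.6% and 23.1% of the genes stood at 0 on the 4 chips. For a gene at 0 on a whole chip, the text says that it was listed at 0 and gives no fold against that chip. This concerned GNAT1, PDE6A and CNGA1 at day 60, SAG at day 90 and CNGA1 on both day 200 chips.

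The sequence just upstream of the start sites is shown for 6 of the 8 members with an entry in the RefSeq table on GRCh38.p14: the 5 that hold the letters searched, and GNAT1, which does not but was read in more of the rod-like cells described below than any other member. CNGA1 and SLC24A1, not shown, hold neither set of letters in 250 bases, and PDE6G is named only. Capitals mark TAATCC, the letters bound by the CRX and OTX2 type of factor, and TGCTGA, the core of NRL sites, on either strand (GGATTA and TCAGCA on the reverse). Each line holds the 100 bases before the start site, 5′ to 3′ on the strand of the gene.
GNAT1, chr3:50191510-50191609, plus strand: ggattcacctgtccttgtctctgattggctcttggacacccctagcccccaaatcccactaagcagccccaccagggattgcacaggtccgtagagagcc
GNGT1, chr7:93906467-93906566, plus strand: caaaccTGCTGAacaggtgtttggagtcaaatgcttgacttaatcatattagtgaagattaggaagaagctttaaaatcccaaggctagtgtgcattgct
PDE6A, chr5:149944794-149944893, minus strand: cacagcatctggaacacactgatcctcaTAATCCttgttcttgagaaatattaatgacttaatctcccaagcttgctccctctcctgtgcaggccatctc
PDE6B, chr4:625473-625572, plus strand: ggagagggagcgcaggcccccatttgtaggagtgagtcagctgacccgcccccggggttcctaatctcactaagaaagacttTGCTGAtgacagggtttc
CNGB1, chr16:57971129-57971228, minus strand: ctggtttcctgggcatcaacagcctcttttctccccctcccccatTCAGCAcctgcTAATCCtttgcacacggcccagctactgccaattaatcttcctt
SAG, chr2:233307716-233307815, plus strand: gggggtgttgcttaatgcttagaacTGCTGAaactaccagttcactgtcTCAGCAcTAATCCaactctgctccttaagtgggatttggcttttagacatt
The SAG and CNGB1 windows hold both sets of letters close together, PDE6A holds TAATCC, PDE6B and GNGT1 hold TGCTGA, and GNAT1 holds neither. Over 250 bases upstream, 8 of the 9 members had an entry, and 3 of them held TAATCC, 4 held TGCTGA and 2 held both. A member was counted once over all its start sites, 12 windows in all, whereas the shares that follow are of single windows. Of all 35116 windows of that length in the table, 5.62% held TAATCC, 14.0% held TGCTGA and 0.888% held both. These matches are letters, not measured binding, and a window without them says nothing about the factors.

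Most members were higher at day 200 than at day 60. A member counts as past 2-fold when its CPM plus 1 on each day 200 chip was at least 2-fold that of the earlier chip, among genes with at least 5 CPM on 1 of the chips compared. All folds between chips given below are of CPM plus 1. Over day 60 this held for 5 of 8 members (GNAT1, GNGT1, PDE6A, PDE6G and CNGB1) and for 8.07% of the 13809 genes compared. None of the 8 was lower, against 4.4% of genes. GNAT1 and PDE6A were listed at 0 at day 60. Among members above 0 on all 3 chips the count was 3 of 6, against 7.55% of 12913 such genes.

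Much of this difference was present by day 90. Day 90 was past 2-fold over day 60 for 4 of 6 members (GNAT1, GNGT1, PDE6G and CNGB1), against 11.5% of 13031 genes, and no member was lower, against 8.34%. From day 90 to day 200, only PDE6A was higher on both chips, 1 of 8 members against 3.19% of 13679 genes, and only GNGT1 was lower on both, again 1 of 8 against 2.53%. GNAT1, PDE6G, CNGB1 and SAG, the last listed at 0 at day 90, were past 2-fold over day 90 in chip a but not in chip b, and PDE6B and SLC24A1 on neither. With 1 day 200 chip taken alone, 9.28% of 13102 genes were past 2-fold over day 90 in chip a, and 8.03% of 13146 in chip b. In sums over a chip, fewer cells that carry a gene and less of its RNA per cell cannot be told apart.

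**Figure D1:**
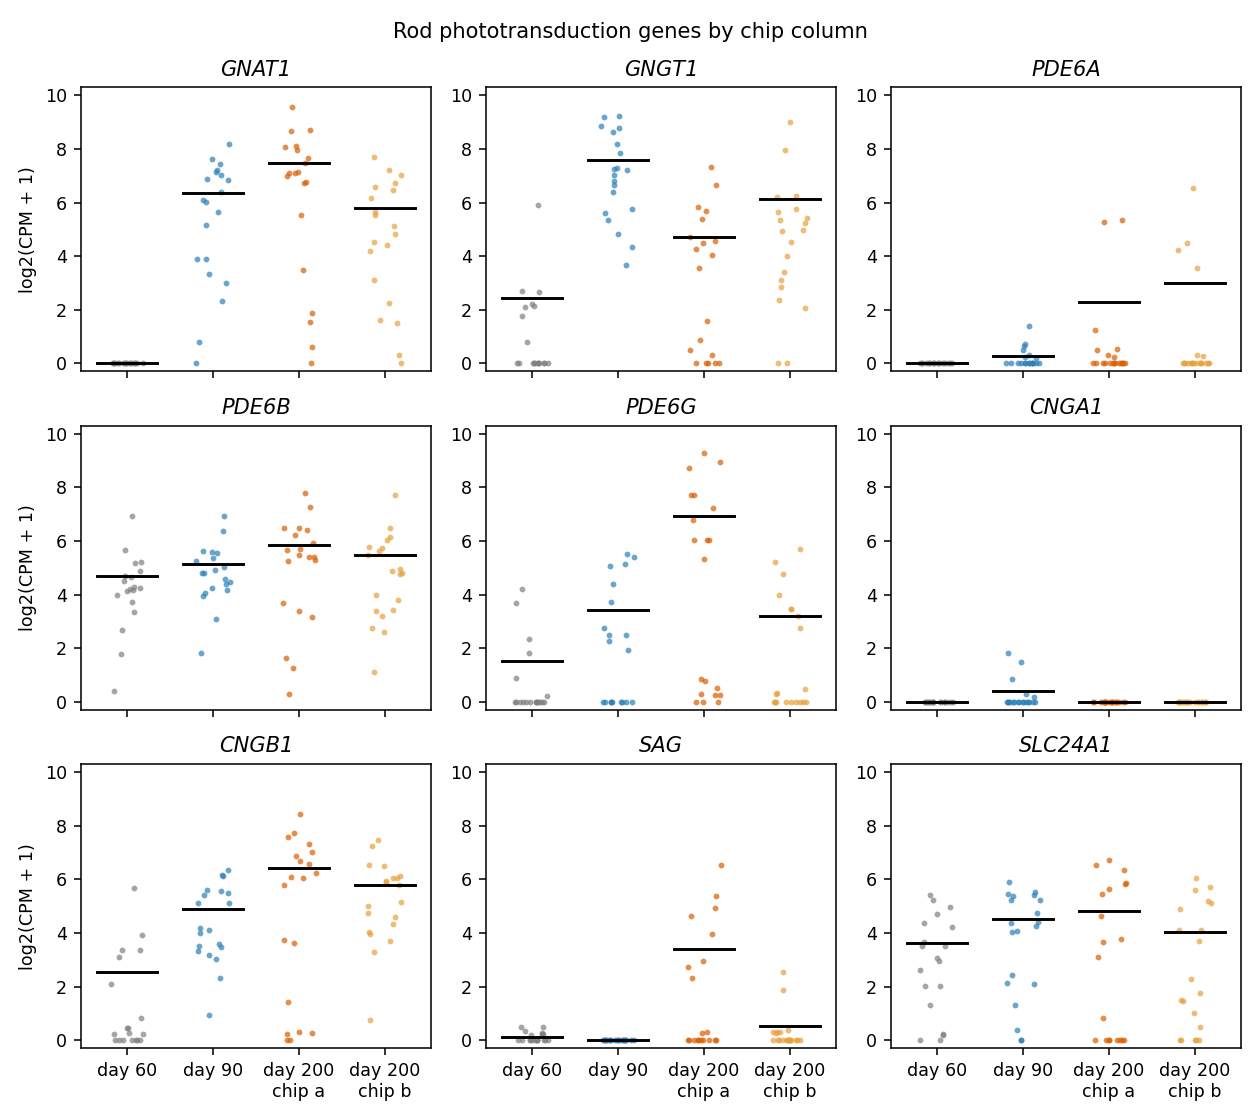
Each point is the level of a gene in 1 chip column, as log2(CPM + 1), and the bar is the level of the whole chip. GNAT1 is listed at 0 in all 19 columns of day 60, GNGT1 is highest at day 90, and the PDE6G points of chip a reach far above those of chip b.

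GNAT1, the rod transducin alpha subunit that carries the GTP, lies on chromosome 3 (50191610 to 50197696, GRCh38). It was listed at 0 at day 60. At day 90 it reached 81.2 CPM (79.6 to 82.9), with columns from 0 to 291 and a median of 65.8. In chip a it reached 178 CPM (176 to 181), with columns from 0 to 763 and a median of 136. In chip b it reached 54.4 CPM (52.9 to 56), with columns from 0 to 206 and a median of 30.9. Columns of the 3 later chips overlapped widely, and day 90 lay between the 2 chips of day 200. The level rested on few cells, since the 10 cells with most reads held 64% of GNAT1 reads at day 90, 64% in chip a and 75.2% in chip b. A read was found in 12.7% (10.2 to 15.5) of thinned cells at day 90, 18% (14.1 to 22.4) in chip a and 9.19% (6.48 to 12.5) in chip b.

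At day 90, and less so in chip a, low counts of GNAT1 were commoner in columns with a cell of many GNAT1 reads. At day 90, cells with 1 to 4 GNAT1 reads made up 14.2% of the cells below 5 reads in the 13 columns that also held a cell with at least 100 reads, and 3.17% in the other columns. In chip a these shares were 21.6% and 14.9%, and in chip b 5.84% and 5.24%. PDE6G showed the same kind of gap in chip a, 18.9% against 3.82%, and CNGB1 19.8% against 7.43%. PDE6B had little or none in chip a, 19.7% against 19.4%, and at day 90, 15.2% against 13.5%. Its shares were 11.5% against 8.02% in chip b and 6.82% against 4.56% at day 60. Why low counts lay there was not tested, and shares of cells within classes are therefore given below for cells with at least 5 reads.

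GNGT1, the rod transducin gamma subunit that anchors the complex to the membrane, lies on chromosome 7 (93591573 to 93911265). It had 4.46 CPM at day 60, of which 70.3% came from 1 cell. At day 90 it had 193 CPM (190 to 196), with reads in all 20 columns, from 11.8 to 596 CPM with a median of 137. In chip a it had 25.6 CPM (24.6 to 26.6), with columns from 0 to 161 and a median of 13.1, and in chip b 69 CPM (67.3 to 70.8), with columns from 0 to 519 and a median of 29.9. Among the 8 members compared, it was the only one past 2-fold lower on both day 200 chips than at day 90, by a log2 difference of -2.87 in chip a and -1.47 in chip b. The order of the days depended on the RPE-like cells, as described below.

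The 3 phosphodiesterase genes did not move together. PDE6B, the beta catalytic subunit on chromosome 4 (625573 to 670782), was present from day 60, with 24.6 CPM there, 34.2 at day 90, 57.4 in chip a and 43 in chip b. Its column medians were 18, 26.9, 42.9 and 27.9 CPM and its columns overlapped on all chips. It was 2.28-fold day 60 in chip a and 1.72-fold in chip b, and so not past 2-fold on both. PDE6A, the alpha catalytic subunit on chromosome 5 (149857953 to 149944793), was listed at 0 at day 60 and had 0.199 CPM at day 90, from 23 reads in 8 cells. It reached 3.95 CPM (3.57 to 4.37) in chip a and 6.91 CPM (6.37 to 7.47) in chip b, but from 12 and 9 cells, and 1 cell held 50.8% and 59.3% of these reads. With the top cell of each chip left out, PDE6A fell below 5 CPM on every chip and was no longer compared.

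PDE6G, the small inhibitory gamma subunit on chromosome 17 (81650459 to 81663112), differed widely between the day 200 chips. It had 1.86 CPM at day 60 and 9.8 CPM (9.24 to 10.4) at day 90. In chip a it had 119 CPM (117 to 122), with columns from 0 to 620 and a median of 51.8, and in chip b 8.22 CPM (7.63 to 8.83), with columns from 0 to 51 and a median of 0.239. Chip a was 13.1-fold chip b, so PDE6G was 11.2-fold day 90 in chip a and 0.85-fold in chip b. Thinned cells with a PDE6G read made up 4.58% at day 90, 9.55% in chip a and 3.67% in chip b.

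Of the channel genes, CNGB1 was read on every chip and CNGA1 was above 0 at day 90 only. CNGB1, the beta subunit on chromosome 16 (57882340 to 57971128), had 4.84 CPM at day 60, 28.6 CPM (27.7 to 29.6) at day 90, 84.4 CPM (82.6 to 86.2) in chip a and 54.2 CPM (52.7 to 55.8) in chip b. Its column medians were 0.191, 16.6, 66.3 and 44.2 CPM, and it was 14.6-fold day 60 in chip a and 9.45-fold in chip b. CNGA1, the pore-forming alpha subunit on chromosome 4 (47935977 to 48016681), was listed at 0 at day 60 and on both day 200 chips. At day 90 it had 36 reads in 7 cells of 5 columns, none of them rod-like as defined below.

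SLC24A1, the exchanger on chromosome 15 (65611366 to 65660995), was with PDE6B one of the 2 members above 10 CPM on every chip. It had 11.4 CPM at day 60, 21.9 at day 90, 27.2 in chip a and 15.5 in chip b, and thinned cells with a read made up 5.88%, 7.18%, 6.74% and 6.04%. SAG, the arrestin on chromosome 2 (233307816 to 233347055), had 10 cells with 1 read each at day 60 and was listed at 0 at day 90. In chip a it had 9.55 CPM (8.94 to 10.2) from 12 cells, with 42.5% of reads in 1 cell, and in chip b 0.46 CPM (0.33 to 0.623) from 41 reads in 9 cells. After adding 1 CPM, SAG was 9.63-fold day 60 in chip a and 1.33-fold in chip b, and the offset understates the fold of so low a gene.

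The cells that carried the members were sought by clustering all cells without the members and their cone counterparts, so that the clusters could be read against the members. Of 13 clusters, cluster 11 was rod-like by 7 markers of the rod list, though not by all of that list. Its 10 leading genes held 5 of the rod list (NRL, NR2E3, ROM1, RP1 and SAMD7). They also held CCKBR, which ranked first, and CABP5, which is on the bipolar marker list. Cluster 11 held 65 cells, of which 29 were day 90 cells, 25 lay in chip a, 11 in chip b and 0 were day 60 cells. Cluster 2 was cone-like (225 cells), cluster 3 was like photoreceptor and bipolar precursors (203 cells) and cluster 6 was RPE-like (98 cells, 78 of them from day 90). These names were rebuilt here and may differ from those of the study. The cells outside these 4 clusters, called other cells below, hold Müller glia-like, ganglion cell-like and dividing cells among others and serve as the background.

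Of the 9 members, 7 had their highest level in the rod-like cluster. The exceptions were GNGT1, which was highest in the RPE-like cluster, and CNGA1. The share of all genes with their highest level in the rod-like cluster was not counted, so this number has no background. Some of these levels rest on few cells: PDE6A had at least 5 reads in 4 rod-like cells, and SAG and SLC24A1 in 7 each. In rod-like cells of all chips, GNAT1 reached 1712 CPM, PDE6G 757, CNGB1 380, PDE6B 374, GNGT1 271, SLC24A1 95.5, SAG 59.9 and PDE6A 57.2 CPM. In cone-like cells CNGB1 had 89.1 CPM and GNAT1 79, and every other member less. The rod-like cells were 4.88% of the day 200 cells and held 77.4% of GNAT1, 81% of PDE6G, 84.2% of SAG and 77.7% of PDE6A reads of that day. They held less of CNGB1 (33.9%), PDE6B (44.7%) and SLC24A1 (23.2%), which were also read in cone-like, precursor-like and other cells.

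**Figure D2:**
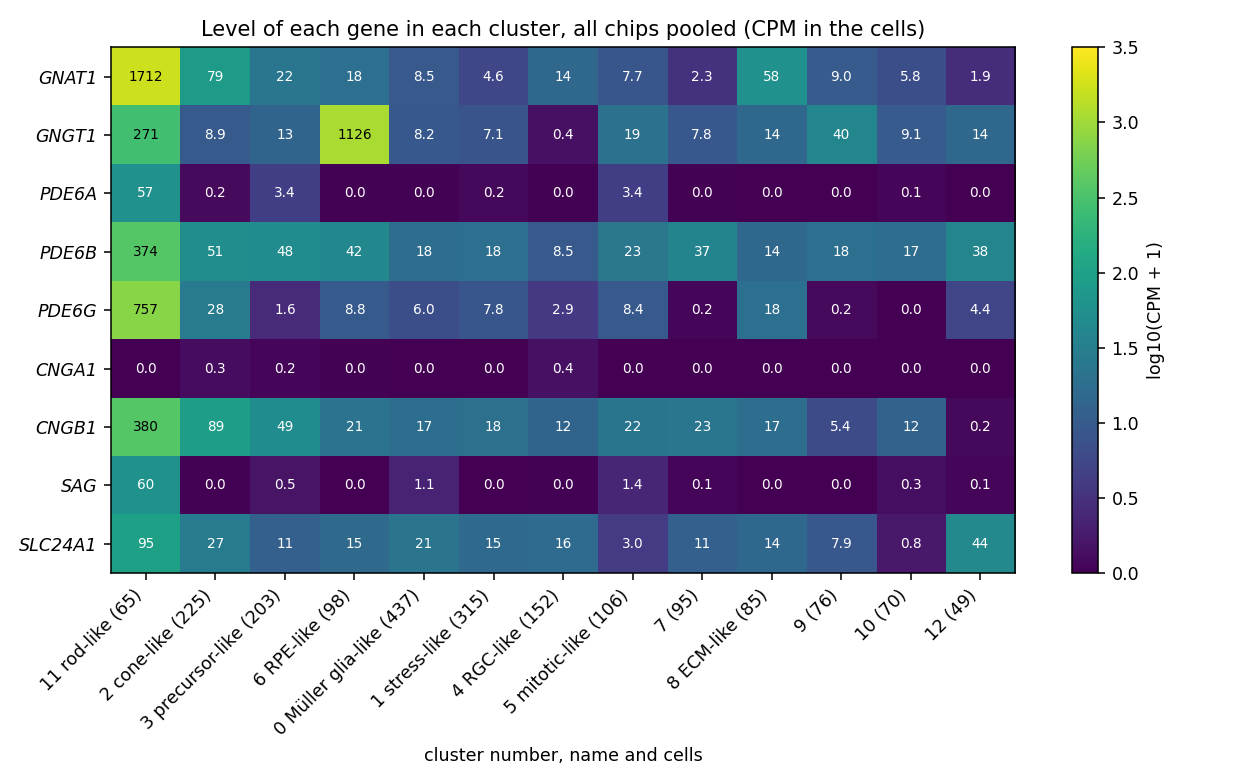
Each cell of the map gives the level of a gene in a cluster as CPM, coloured by log10(CPM + 1), with the cluster number, its name where it has one and its number of cells under the map. The rod-like column is brightest for 7 genes, GNGT1 is brightest in the RPE-like column, and the CNGA1 row is near 0 throughout.

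Within rod-like cells, the members differed by day more than the chip totals showed. Both day 200 chips were past 2-fold over day 90 for 5 of 8 members (PDE6A, PDE6B, PDE6G, CNGB1 and SAG), against 9.47% of 12337 genes, and no member was lower, against 20.5%. SAG was listed at 0 on the day 90 chip, and without such genes the count was 4 of 7, against 9.96%. PDE6B had 191 CPM (179 to 205) at day 90, 406 (391 to 421) in chip a and 642 (609 to 676) in chip b. CNGB1 had 164 CPM (153 to 177), 420 (405 to 436) and 692 (658 to 727). PDE6A was at 0 in the 29 rod-like cells of day 90 and had 54.4 CPM and 180 CPM on the day 200 chips, each from 2 cells with at least 5 reads. GNAT1 moved little by comparison, from 1351 CPM (1317 to 1385) to 2001 (1967 to 2035) and 1571 (1520 to 1623), or 1.48-fold and 1.16-fold day 90. SLC24A1 was 1.06-fold day 90 in chip a and 1.93-fold in chip b.

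The day 200 chips disagreed on GNGT1, PDE6G and SAG in rod-like cells. GNGT1 had 81.4 CPM (74.8 to 88.5) in 25 cells of chip a and 1274 CPM (1228 to 1321) in 11 cells of chip b, with at least 5 reads in 4 and in 9 cells. PDE6G went the other way, with 1397 CPM (1369 to 1425) in chip a and 222 CPM (203 to 242) in chip b, although the share of cells with at least 5 reads was alike, 48% (27.8 to 68.7) and 54.5% (23.4 to 83.3). SAG had 115 CPM (107 to 123) in chip a and 15 CPM (10.4 to 21) in chip b, in 5 and 2 cells. With the rod-like cells of chip a left out, 6 members were past 2-fold over day 90, GNGT1 being the sixth, but 25.7% of all genes then were. With only cells of at least 150000 reads, PDE6B was no longer past 2-fold while GNGT1 and SLC24A1 were, against 11.9% of all genes. With the members kept among the clustering genes only PDE6A, PDE6G and SAG were, against 11.2%.

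**Figure D3:**
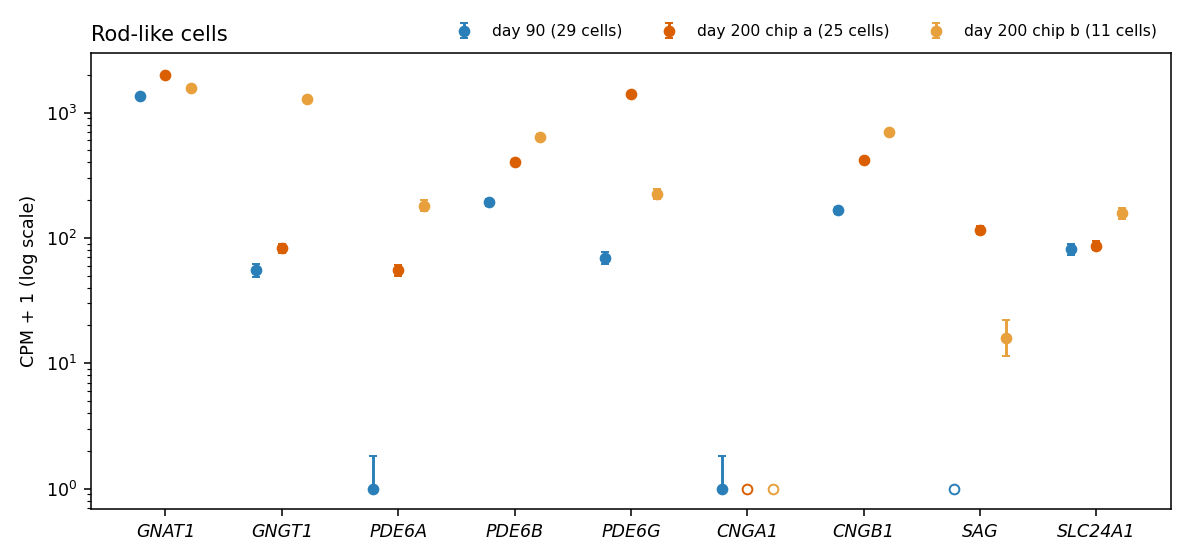
Levels of the members in the rod-like cells of each chip, as CPM + 1 on a log axis, with 95% exact Poisson bars. Open circles are genes listed at 0 on that chip. PDE6B and CNGB1 are above day 90 on both day 200 chips, while GNGT1 is high in chip b and PDE6G and SAG are high in chip a.

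GNAT1, PDE6B and CNGB1 had at least 5 reads in a larger share of rod-like cells than of other cells on each later chip. For GNAT1 this was 69% (49.2 to 84.7) at day 90, 76% (54.9 to 90.6) in chip a and 11 of 11 cells in chip b, against 4.96%, 8.26% and 4.81% of other cells. PDE6B was found in 41.4%, 60% and 72.7% of rod-like cells, against 8.19%, 5.05% and 11.3% of other cells. CNGB1 was found in 51.7%, 48% and 81.8%, against 2.48%, 5.96% and 8.25%. SLC24A1 was found in 6.9% (0.846 to 22.8), 12% (2.55 to 31.2) and 18.2% (2.28 to 51.8) of rod-like cells, against 4.22%, 4.13% and 3.44%, and these intervals include the background. Whether free RNA added to the shares in other cells was not tested.

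Per kilobase of exon, the ratios of partner subunits differed between pairs and chips. In rod-like cells of day 200, PDE6B had 91.2 CPM per kilobase and PDE6A 11.6, a ratio of 7.88, with 10.9 in chip a and 5.2 in chip b. The 2 genes encode the catalytic pair of the rod enzyme. Of the 6 day 200 cells with at least 5 PDE6A reads, 5 also had at least 5 of PDE6B, whereas 96 cells had PDE6B. PDE6G had 62.2 CPM per kilobase at day 90, 1275 in chip a and 203 in chip b, so its ratio to PDE6B was 1.66, 16 and 1.61, and 1.19, 11.5 and 1.15 with the longest transcripts. GNAT1 over GNGT1 was 14.6 at day 90, 14.4 in chip a and 0.721 in chip b. CNGB1 had 66.8 CPM per kilobase at day 200 while its partner CNGA1 was listed at 0.

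Members were found together in the same cells. After thinning, a read of at least 3 of the 9 genes was found in 0 of 578 cells at day 60, which allows a share of up to 0.636% by the exact interval, in 6.87% (5.05 to 9.09) at day 90, in 8.43% (5.76 to 11.8) in chip a and in 6.3% (4.08 to 9.23) in chip b. With at least 5 reads of each gene and no thinning, these shares were 4.84%, 5.62% and 5.77%. By this count, at least 3 members were found in 10 of 29 rod-like cells at day 90 (34.5%, 17.9 to 54.3), 15 of 25 in chip a (60%, 38.7 to 78.9) and 10 of 11 in chip b (90.9%, 58.7 to 99.8). Among other cells it was 1.49%, 1.38% and 1.72%. In cone-like cells the shares were 6.45%, 3.23% and 6.9%, in precursor-like cells 0%, 0% and 11.6%, and in RPE-like cells of day 90 12.8% (6.32 to 22.3). Cells were not thinned for these class shares, and the median cell had 160343 reads at day 90, 251929 in chip a and 212201 in chip b. Differences between chips in these shares therefore cannot be told apart from depth. No cell had more than 6 of the 9 members by this count. The 5 cells with 6 came from day 200, 4 of them rod-like and 1 precursor-like.

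**Figure D4:**
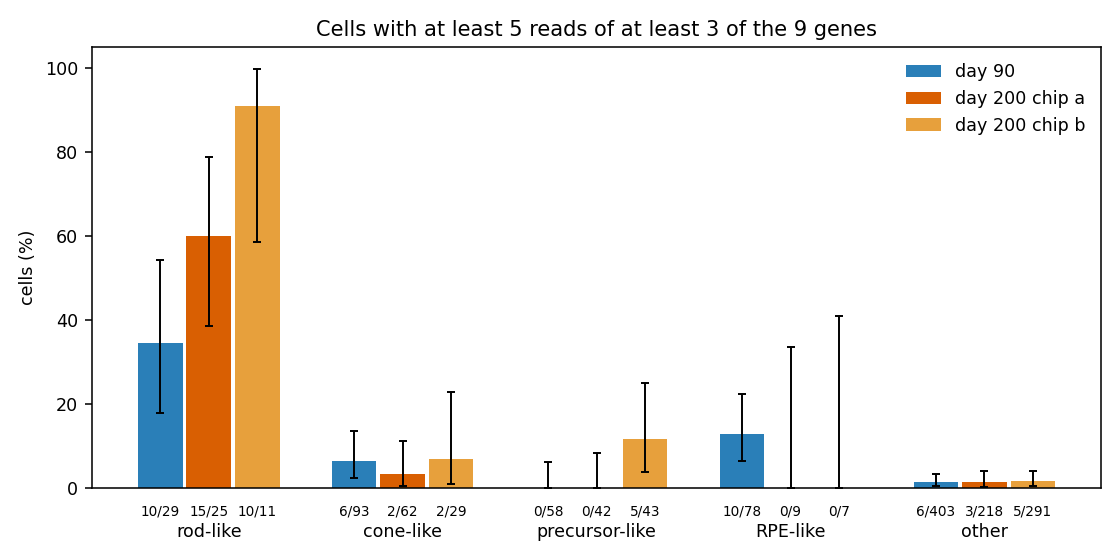
Bars give the share of cells with at least 5 reads of at least 3 of the 9 genes, by class and chip, without thinning. Intervals are 95% exact binomial, and the cell numbers stand under each bar. Rod-like cells stand at 34.5%, 60% and 90.9%, and other cells under 2%.

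At day 200, cells with GNAT1 often held other members, and the reverse was less even. Of 81 cells with at least 5 GNAT1 reads, 35 had CNGB1, 32 had PDE6B, 20 had PDE6G and 18 had GNGT1. Among all 737 day 200 cells, these genes reached 5 reads in 92, 96, 35 and 61 cells. The 2 chips differed most for GNGT1, found in 4 of 47 GNAT1 cells of chip a and 14 of 34 of chip b. In the same cells CNGB1 was found in 15 and 20, PDE6B in 16 and 16, and PDE6G in 13 and 7. All 6 cells with PDE6A had GNAT1, as did 20 of 35 with PDE6G, 5 of 10 with SAG and 18 of 61 with GNGT1. PDE6A and SAG were never found in the same cell at this threshold, but each was rare. Of the 5 cells with 6 members, 1 rod-like cell of chip b held 1020 GNAT1, 1358 GNGT1, 1008 PDE6B, 330 CNGB1, 167 SLC24A1 and 150 PDE6G reads of 291225 in all. The rod-like cell of chip a among them held 1592 PDE6G, 883 GNAT1, 336 CNGB1, 290 PDE6B, 180 SAG and 5 SLC24A1 reads, with 0 of GNGT1.

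At day 90 most GNGT1 reads came from RPE-like cells, named for the pigment epithelium that lies behind the photoreceptors. On that chip the 78 RPE-like cells were 11.8% of the cells and held 93.6% of GNGT1 reads, at 1240 CPM, with at least 5 reads in 67 cells. In the 29 rod-like cells of the same chip it had 53.9 CPM, and in other cells 14.8. The RPE-like cells of day 200 were few, 9 in chip a with 652 CPM and 7 in chip b with 1079 CPM. They held 62% of GNGT1 reads in chip a and 24.1% in chip b, where rod-like cells held 22.3% and 46.9%. With the RPE-like cells left out, GNGT1 had 4.49 CPM at day 60, 14.5 at day 90, 9.97 in chip a and 53.2 in chip b. It was then no longer lower on both day 200 chips than at day 90, and its smaller difference from day 60, in chip a, was 1.00 on the log2 scale, just short of 2-fold. The leading genes of this cluster were pigment genes such as PMEL, TYRP1 and DCT, and only 4 of the 67 cells also had at least 5 GNAT1 reads.

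**Figure D5:**
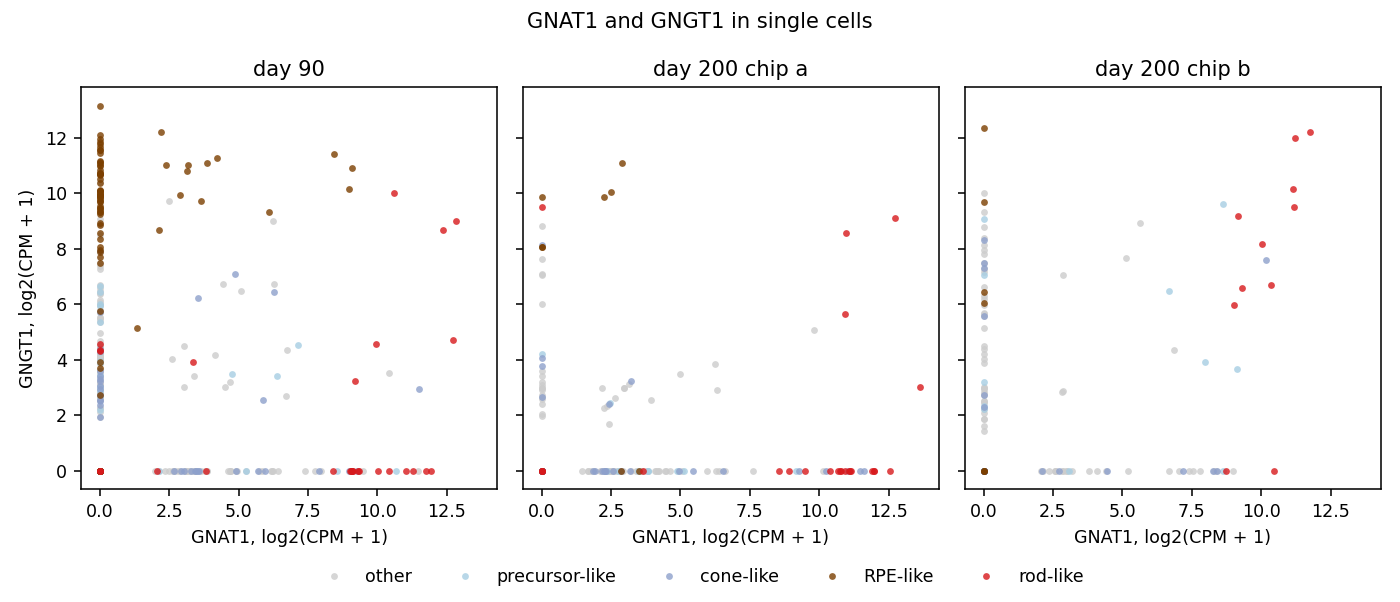
Each point is a cell, placed by its GNAT1 and GNGT1 levels as log2(CPM + 1) and coloured by class, for day 90 and the 2 day 200 chips. RPE-like cells are high in GNGT1 and mostly at 0 for GNAT1, rod-like cells of day 90 and chip a are high in GNAT1 and mostly at 0 for GNGT1, and those of chip b are mostly high in both.

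The annotation around GNGT1 is given with these values. In GENCODE 44 its model starts far upstream of the RefSeq start used above and spans TFPI2, a protease inhibitor gene on the opposite strand, with 44 shared exon bases, 1.9% of the GNGT1 exons. No strand setting is named for the counting, so reads over shared bases cannot be told apart. TFPI2 and the next gene GNG11 were looked up after the GNGT1 values were seen. TFPI2 had 1260 CPM in RPE-like cells and 397 CPM in cluster 9, where GNGT1 had 39.8 CPM, and GNG11 had 475 and 324 CPM. Of the 77 RPE-like cells with at least 5 GNGT1 reads, 70 had TFPI2, against 12 of the 18 without GNGT1. Of the 18 rod-like cells with GNGT1, 5 had TFPI2 and 16 had GNAT1, against 2 and 31 of the 41 without. Among other cells, TFPI2 was found in 24 of 64 with GNGT1 and 80 of 1212 without. The part of these neighbours in the RPE-like GNGT1 counts was not tested. Among the other members, PDE6B shares 13.9% of its exon bases with an antisense gene that is no row of the table, and SLC24A1 shares 4% with DENND4A on the opposite strand and 5.1% with another opposite-strand gene that is no row.

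The cone counterparts were compared in the same way. All 6 of those compared (GNGT2, PDE6H, PDE6C, CNGB3, ARR3 and SLC24A2) were past 2-fold at day 90 over day 60, against 11.5% of all genes. All 6 were also past 2-fold on both day 200 chips over day 60, against 8.07%. PDE6H, the cone gamma subunit, was read in 27 of the 48 thinned day 200 cells with PDE6G (56.2%) and in 28.5% of all thinned cells. Conversely, 12.9% of the 210 PDE6H cells had PDE6G. GNGT2 was read in 36.5% of GNGT1 cells and 12.3% of all cells in chip b, but in 22.2% and 23.6% in chip a and in 21.3% and 26.3% at day 90. PDE6C was read in 2 of 121 cells with PDE6B (1.65%) and 3.39% of all cells. CNGB3 was read in 16 of 113 CNGB1 cells (14.2%) and 5.97% of all cells. By chip these shares were 8.77% and 7.02% in chip a, and 19.6% and 4.99% in chip b. ARR3, the cone arrestin, was read in 3 of 12 SAG cells (25%) and 17% of all cells. CNGA3, the cone partner of CNGA1, stayed at 3.54 CPM or less on every chip.

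In rod-like cells the cone phosphodiesterase subunit PDE6H was lower on both day 200 chips than at day 90, where PDE6G was higher. Its level was 1282 CPM per kilobase at day 90, 551 in chip a and 264 in chip b, against 62.2, 1275 and 203 for PDE6G. GNGT2 stayed between 200 and 290 CPM per kilobase in these cells, and PDE6C at 0.088 or less. ARR3 had 102 and 119 CPM per kilobase at day 90 and in chip a, and 0.514 in chip b.

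Of 15 other genes of the rod cascade and outer segment, 13 were compared and 9 were past 2-fold on both day 200 chips over day 60. This compares with 8.07% of all genes, and none of the 13 was lower, against 4.4%. The 9 included RCVRN, the calcium sensor recoverin (53.5 CPM at day 60, 684 in chip a and 641 in chip b), ROM1, an outer segment disc protein (3.26, 129 and 44), PRPH2, its partner peripherin (3.14, 113 and 57.8), and PDC, phosducin, which binds the beta and gamma subunits of transducin (48.6, 212 and 131). GNB1, the transducin beta subunit that is used by many cells, had 164 CPM at day 60, 174 in chip a and 132 in chip b. GUCY2D, a guanylate cyclase that remakes cyclic GMP, stayed at 0.52 CPM or less, and GUCY2F was above 0 only at day 90 (0.337 CPM). Over day 90, none of the 13 was past 2-fold on both chips in either direction, against 3.19% of all genes higher and 2.53% lower.

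Among 6 regulators, 3 of the 5 compared were past 2-fold on both day 200 chips over day 60, against 8.07% of all genes. These were OTX2, NRL and NR2E3. NRL, the rod fate factor, had 7 CPM at day 60, 73.6 at day 90, 232 in chip a and 82.5 in chip b. NR2E3, its partner that represses cone genes, had 1.66, 11.2, 45.9 and 36.2 CPM. It was the only regulator past 2-fold over day 90 on both chips, 1 of 5 compared against 3.19% of all genes. CRX had 4.74, 10.8, 5.25 and 5.46 CPM and was past 2-fold over day 60 at day 90. Of the 42 day 200 cells with at least 5 reads of 3 or more members, 37 had NRL (88.1%, 74.4 to 96), 23 had NR2E3 (54.8%) and 6 had CRX (14.3%), against 9.65%, 3.29% and 1.03% of the 487 cells with none. At day 90, 22 of 32 such cells had NRL (68.8%, 50 to 83.9), 11 had NR2E3 (34.4%) and 2 had CRX (6.25%, 0.766 to 20.8), against 7.86%, 1.97% and 3.44% of the 407 cells with none. The CRX interval includes the share in cells with none. OTX2 was found in 76.2% against 29.6% at day 200, and ESRRB in 4.76% against 0.205%. MEF2C showed no excess, with 11.9% against 12.9% at day 200 and 6.25% against 10.8% at day 90. GNB1, which is used by many cells, was also commoner at day 200, 64.3% against 38.2%, but not at day 90, 43.8% against 42.5%. Of the 32 day 90 cells, 10 were RPE-like.

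The genes whose levels over day 200 cells were most like the sum of the members were RCVRN, RP1, NRL, IMPG2, GNB3, ROM1, NR2E3, PRPH2, CDHR1 and PDC. Their Pearson correlations on the log2(CPM + 1) scale, averaged over the 356 cells of chip a and 381 of chip b, ran from 0.439 for RCVRN to 0.368 for PDC, among 14292 genes with reads in at least 20 cells. The cells share libraries and depth, so these are descriptions. At day 90, whose cells were not used for the ranking, the same 10 genes had correlations from 0.19 (RCVRN) to 0.362 (NRL). GNB3 is the cone transducin beta subunit, and 7 of the 10 were also among the first 10 by Spearman correlation.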

How the data were processed

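The data are read counts of single cells of retinal organoids, mapped through the cell table to 79 chip columns and 4 chips. The authors trimmed reads (Trimmomatic 0.33), aligned them with STAR 2.4.0 to GRCh38.p7, obtained gene counts with HTSeq 0.6 and then removed poor cells and rarely read genes; the deposited values are raw counts without normalization, and 1 spike-in row was kept out of totals. Here, CPM were computed from reads summed per chip, thinning used 50000 reads, and clusters were found with Seurat 5.3.0 in R 4.3.3 (LogNormalize, 2433 variable genes, CCA, 20 dimensions, resolution 0.6) and named from marker lists by at least 3 markers with a 2-fold excess in at least 20% of cells. Doublets were called with scrublet in scanpy 1.11.5 (25 cells) and kept, except in an alternative. Exon lengths and positions are from GENCODE 44, whereas the study used GENCODE 25, and promoters are from RefSeq. edgeR 4.0.16 gave TMM factors for an alternative. Steps were tested on simulated data. The members, gene lists and alternatives were chosen with earlier results of these data known. Named genes are the members, their cone counterparts, the listed cascade genes and regulators, cluster markers and the 10 most similar genes. GRK1 and GNAT2 were not analysed here. Python 3.11.15, numpy 2.4.6, scipy 1.17.1 and pandas 2.3.3 were used.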

Additional observations from a re-analysis of the deposited data

How the results depend on the processing

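The counts of members past 2-fold over day 60 were 5 at day 200 (8.07% of genes) and 4 at day 90 (11.5%). They stayed within 1.5 times under TMM factors, the mean over cells, removal of called doublets and cells of at least 150000 reads. The same held with the top cell left out, no low-value filter, and RPE-like cells left out. With 1 day 200 chip left out, the count was 5 without chip a, against 12.5% of genes, and 7 without chip b, against 15.7%. The kept spike-in row held 0 reads at days 60 and 90, 0.0165% of reads in chip a and 0.00394% in chip b. Adding it to the totals could therefore not test the counts. An offset of 10 CPM gave 3 at day 200, against 2.72% of genes, since PDE6A and PDE6G dropped out. Genes above 0 on every chip gave 3, against 7.55%, since GNAT1 and PDE6A could not be compared. The count higher than day 90 (1, against 3.19% of genes) was 0 with the top cell left out (2.34%) and 0 with the offset of 10 CPM (0.578%). It was 4 without chip b, against 9.28% of genes. The count lower than day 90 (1, against 2.53%) was 0 without RPE-like cells (2.22%). Within rod-like cells the count (5, against 9.47% of genes) ran from 3, with the members kept among the clustering genes (11.2%), to 6. The 6 came with cells of at least 150000 reads (11.9%) and without chip a (25.7%). These alternatives were chosen after seeing the data, as were those on RPE-like cells and on genes above 0. The share of day 200 cells with at least 3 members (7.33%) was 12.6% without thinning, 5.43% at 25000 reads, 16% for at least 2 members, 3.26% for at least 4, 6.3% without chip a and 8.43% without chip b. At day 90 the share (6.87%) was 12% without thinning, 4.84% with at least 5 reads, 19.8% for at least 2 members and 2.6% for at least 4. The members read in at least 5% of thinned cells on both day 200 chips (5) were 3 with at least 5 reads. The 7 members highest in the rod-like cluster remained those genes under all 7 alternatives of clustering and cells. The 6 members at 5 CPM or more on both day 200 chips numbered 6 or 7 throughout, the PDE6B over PDE6A ratio was 9.39 with the longest transcripts. Without RPE-like cells, GNGT1 turned from lower to higher in chip b than at day 90 (53.2 against 14.5 CPM), while chip a stayed lower (9.97 CPM). No paired analysis was possible because the chips are not paired, their column numbers name positions on separate chips, and no result comes from a test. The limits are 1 chip each at days 60 and 90, and cell filters and a spike-in amount that differed by day. A table filtered by chip, few rod-like cells (65) and reads without molecular identifiers are further limits.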
